A study of Rattus norvegicus with 8 samples.

Results

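The immediate early genes are a small set of genes that neurons transcribe within minutes of synaptic activity, before any new protein is made. A calcium signal at the synapse activates kinases of the CaMK, MAPK and RSK families, which phosphorylate the factors CREB, Elk and SRF already bound at these promoters. Most immediate early genes encode transcription factors that go on to switch on later genes, while a few, of which Arc is the best known, act at the synapse itself. Their RNA and proteins are short-lived, and in the hippocampus they serve as a readout of recent neuronal activity and are needed for long-term memory.

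Described here are 10 of these genes: the AP-1 genes Fos, Fosb, Jun and Junb, the zinc finger genes Egr1, Egr2, Egr3 and Egr4, the nuclear receptor gene Nr4a1 and the synaptic gene Arc. Members were found as non-control probes carrying the gene's name in the scanner files, which gave 11 probes for 9 genes. Fosb had no probe under its own name and was found through the transcript accession of a probe the array calls LOC100360880, which brought the set to 12 probes and 10 genes. These stood among 30367 non-control probes and 21296 genes tested. All 10 genes had a probe well above background on all 8 arrays, so none entered through a single group.

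RNA came from the hippocampus of male Sprague Dawley rats, and each sample was hybridised to 1 single-colour Agilent array of 60-base probes. The 4 groups of 2 arrays each were normoxia and hypobaric hypoxia for 1, 3 and 7 days, the exposures in a decompression chamber at the pressure of 25000 ft, with oxygen equivalent to 8%. For the last group the titles say day 7 but the exposure field says 5 days, so which duration applies is not settled and the group is called day 7. No label says whether the 2 arrays of a group hold separate animals, pools or 1 RNA, and the p-values then reflect just the scatter between 2 hybridisations, which may be technical. In this bulk tissue, fewer cells of a type and less RNA per cell cannot be told apart. Levels are log2 signals minus the array's 75th percentile, so 0 is the level of that percentile. A change is the log2 difference between the means of 2 groups, given ± SE, with n = 2 arrays in each. Probe coordinates are those of the array's annotation on rn4, and the exon or UTR they lie in was not examined. A gene was called at a limma adjusted p under 0.05 over all 21296 genes.

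The arrays differed in more than exposure. Spots well above background made up 84.5% to 85.6% in normoxia, 80.6% to 82.1% at day 1, 75.7% on both day 3 arrays and 72.6% to 77.0% at day 7, and the 75th percentile of the signal was 2321 to 2684, 2214 to 2247, 1566 to 1710 and 1393 to 1407 in the same order. Added spike-in RNA had a mean log2 signal of 13.0 to 13.2 in normoxia, 12.6 on both day 1 arrays, 12.7 to 12.9 at day 3 and 12.9 to 13.0 at day 7. Scaling to the spike-in would therefore move all genes by 0.34 on day 1, -0.29 on day 3 and -0.68 on day 7 against normoxia, and centring on the median by 0.03, 0.15 and 0.30. Changes below are relative to the 75th percentile, and such a scaling moves the members and all other genes alike.

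Tissue markers also moved with the groups. The marker counts against normoxia stand beside these shares of all genes called. On day 1, 15.3% of all genes were higher and 20.2% lower, on day 3 24.2% and 26.2%, and on day 7 31.5% and 29.7%. Of 14 striatal markers, 14 were higher on day 1 than in normoxia, and their summed signal, in multiples of the array's 75th percentile, was 15.3 to 15.7 in normoxia, 58.5 to 59.5 at day 1, 14.5 to 14.7 at day 3 and 15.4 to 15.7 at day 7. Of these 14, 10 were well above background on all 8 arrays, the dopamine receptor gene Drd1 and the LIM homeobox gene Isl1 on 4, Six3 on 3 and Gpr6 on the 2 day 1 arrays alone, through which it passed the filter. Choroid plexus markers summed to 120 to 131 in normoxia, 1.78 to 1.84 at day 1, 161 to 173 at day 3 and 9.84 to 10.6 at day 7. Of these, 10 of 10 were lower on day 1 and on day 7 than in normoxia. Just 5 of the 10 were well above background on all 8 arrays, with Kl and Cldn2 on 4, Clic6 on 5, F5 on 6 and Kcnj13 on 7, so the size of their falls is uncertain. The sum is mainly Ttr, which read 6.83 and 6.96 in normoxia, 0.35 and 0.40 at day 1, 7.39 and 7.28 at day 3, and 3.32 and 3.21 at day 7. The tissue label was checked with 12 hippocampal markers, which summed to 26.9 to 27.6, 33.5 to 33.8, 44.5 to 44.9 and 36.2 to 39.0 in the same order, and 11 of the 12 were well above background on at least 7 arrays. The exception was Prox1, the dentate granule cell factor gene, which was well above background on 3 arrays. Of these 12 markers, 3 were higher and 4 lower on day 1 than in normoxia, 9 and 0 at day 3, and 4 and 5 at day 7. The 4 that were higher at day 7 were at about the share of all genes. The 9 pan-neuronal markers summed to 109 to 110 in normoxia, 95.4 to 96.8 at day 1, 109 at day 3 and 115 at day 7. As single markers, 1 was higher and 4 lower than normoxia on day 1, 1 and 5 at day 3, and 3 and 5 at day 7. The changes of the 9 at day 7 ran from -0.83 to 0.55, and the 3 higher were at about the share of all genes. Of 10 endothelial markers, 6 were higher and 1 lower than normoxia on day 1 and 6 and 3 at day 7, with a sum of 20.2 to 21.0 in normoxia and 32.4 to 36.4 over the exposed arrays. Of 11 neocortical markers, 5 were higher and 3 lower on day 1, and 2 and 7 at day 7. Immediate early genes are transcribed in striatal as well as hippocampal neurons, and the part of these marker differences in the results below was not tested.

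**Figure D1:**
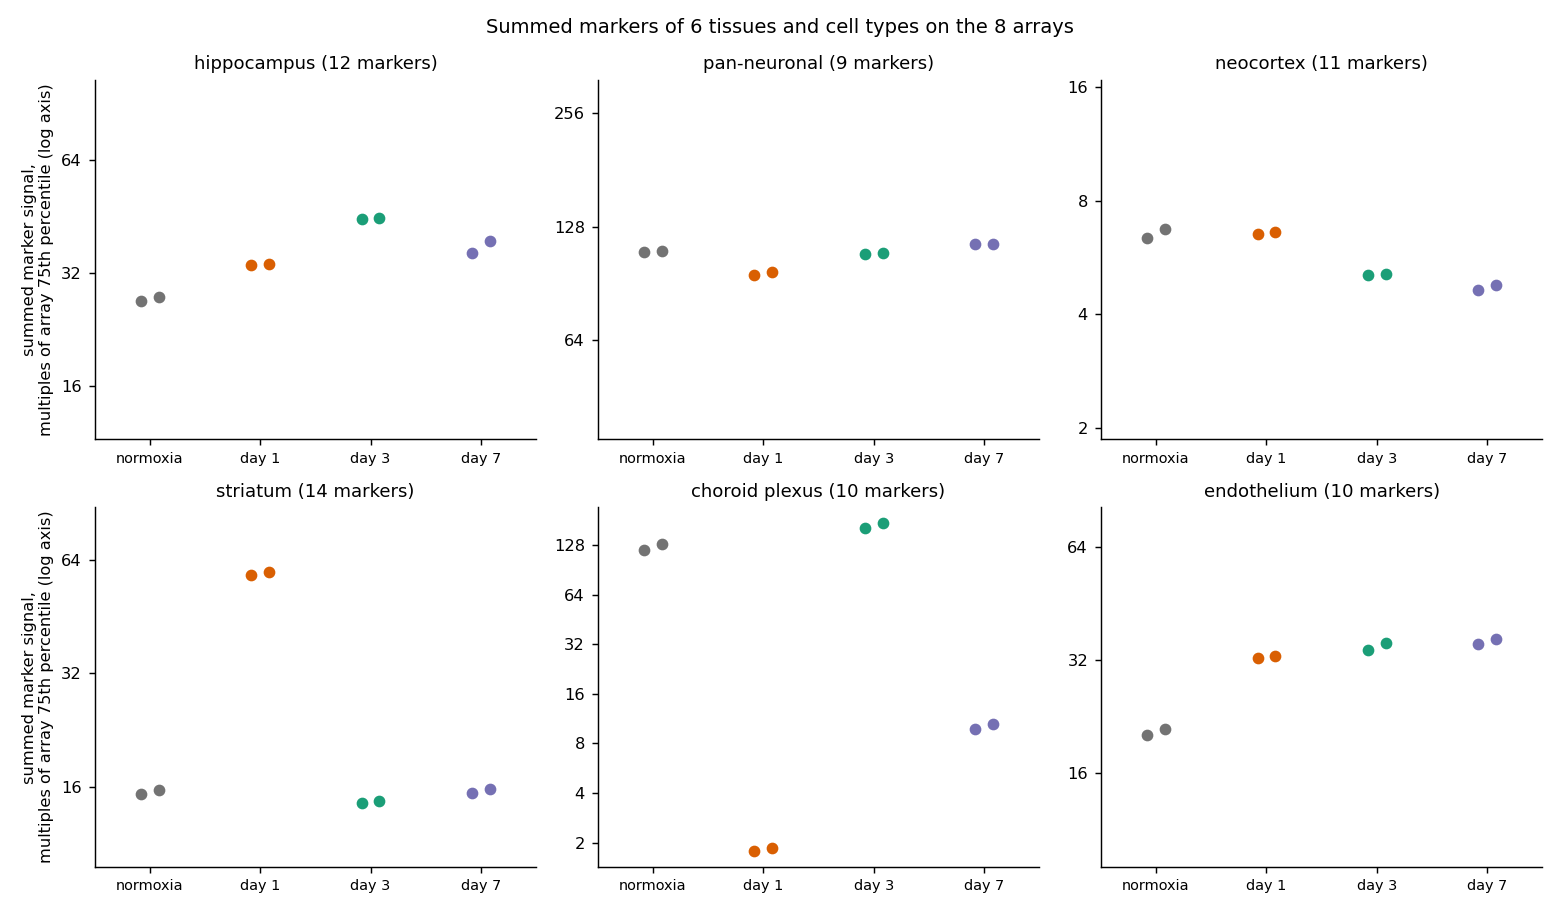
Summed signal of markers of hippocampus, neurons, neocortex, striatum, choroid plexus and endothelium (y axis, multiples of the array's 75th percentile on a log2 axis) on the 2 arrays of each group (points). Striatal markers sum to 58.5 to 59.5 on day 1 and to at most 15.7 in the other groups, choroid plexus markers are at 1.78 to 1.84 on day 1, and the endothelial sum is above normoxia in all 3 exposed groups.

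The promoters of 6 members (Egr1, Egr2, Egr4, Fosb, Junb and Nr4a1) were matched in a RefSeq table of the GRCr8 assembly, as windows of 250 bases before to 50 after each gene's start. Shown are the 250 bases before the start for the 4 of these genes that rose on day 1 in every setting tried. They are written 5′ to 3′ on the gene's strand, with every match to the searched motifs in capitals.
Egr1, chr18:26736828-26737077, plus strand: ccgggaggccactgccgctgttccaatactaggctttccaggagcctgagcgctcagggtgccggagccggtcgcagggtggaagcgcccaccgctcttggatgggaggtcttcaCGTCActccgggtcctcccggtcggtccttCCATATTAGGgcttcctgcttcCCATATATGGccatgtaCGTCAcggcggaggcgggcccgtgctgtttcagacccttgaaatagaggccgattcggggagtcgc
Egr2, chr20:21054442-21054691, minus strand: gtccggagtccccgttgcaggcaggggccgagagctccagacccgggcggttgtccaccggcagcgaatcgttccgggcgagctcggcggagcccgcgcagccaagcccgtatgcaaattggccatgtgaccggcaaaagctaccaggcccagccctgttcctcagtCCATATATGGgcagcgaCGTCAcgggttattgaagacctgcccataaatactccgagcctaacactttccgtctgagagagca
Egr4, chr4:119607818-119608067, minus strand: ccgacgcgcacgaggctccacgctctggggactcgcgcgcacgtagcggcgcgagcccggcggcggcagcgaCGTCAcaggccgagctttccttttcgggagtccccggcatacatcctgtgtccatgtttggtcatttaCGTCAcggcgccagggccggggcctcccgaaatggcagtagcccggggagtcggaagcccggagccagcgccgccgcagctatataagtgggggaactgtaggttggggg
Nr4a1, chr7:134259888-134260137, plus strand: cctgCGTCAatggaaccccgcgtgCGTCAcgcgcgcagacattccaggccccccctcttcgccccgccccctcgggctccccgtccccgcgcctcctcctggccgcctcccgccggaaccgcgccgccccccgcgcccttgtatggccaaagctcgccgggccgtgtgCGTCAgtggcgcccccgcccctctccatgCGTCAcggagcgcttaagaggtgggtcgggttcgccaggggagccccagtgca

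The motifs were the cAMP response element TGACGTCA, its half-site TGACG (which the full element contains, and which reads CGTCA when it lies on the other strand), the TATA box TATAAA and the serum response element, searched on both strands. The serum response element was searched as CC, then 6 bases of A or T, then GG, and sites with a mismatch were not searched. Exact matches to the serum response element, the site of SRF and its Elk partners, stood in the windows of Egr1 and Egr2. None of the other 4 held one, and 1.64% of all 33469 windows of the table did. In Egr1 there were 2, from position -105 to -96 and from -83 to -74 counted from the start. Egr2 had 1, also from -83 to -74, and both genes had a half-site from -66 to -62. The half-site was present in 5 of the 6 windows, against 21.2% of all windows, with 4 copies in Nr4a1 and 2 each in Egr1 and Egr4. No window of the 6 held TGACGTCA (1.83% of all windows), and TATAAA was in Fosb and Junb (14.2%). These matches are letters in a window and no measure of binding.

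The first comparison asked how 1 day at low pressure changed these genes. Of the 10, 7 rose on day 1, against 15.3% of all genes tested, and 1 fell, against 20.2% of all genes. Their median change was 0.33, beside a median of -0.07 over all genes. The 7 that rose were Egr2, Egr1, Fos, Arc, Egr4, Nr4a1 and Junb, with changes of 0.24 to 0.61, and Jun fell. By day 3, 5 members lay below normoxia (26.2% of all genes were lower) and 2 above (24.2%), with a median of -0.20 beside -0.05. On day 7, 7 were lower (29.7%) and 2 higher (31.5%), with a median of -0.34 beside -0.03. These 3 comparisons share the normoxia arrays.

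**Figure D2:**
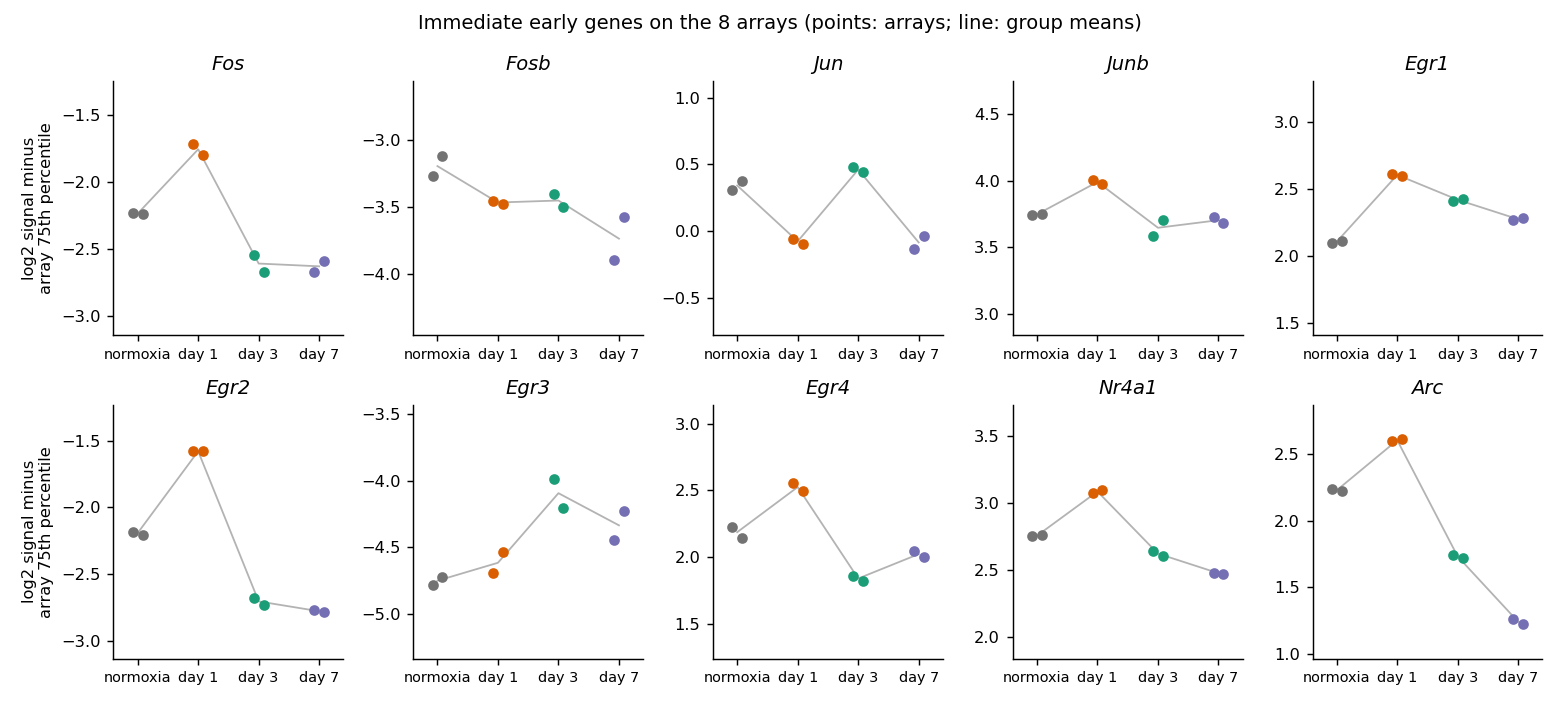
Level of each immediate early gene (y axis, log2 signal minus the array's 75th percentile, each panel spanning the same range of log2 units) on the 8 arrays in the order normoxia, day 1, day 3 and day 7, with points for arrays and lines through group means. Fos, Egr2, Egr4, Nr4a1 and Arc are highest on day 1 and lower than normoxia on days 3 and 7.

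Among the AP-1 genes, Fos encodes a leucine zipper protein that binds DNA only as a dimer with a Jun protein. Its probe (rn4 chr6:109561941-109562000) read -2.23 and -2.24 in normoxia, -1.72 and -1.79 at day 1, -2.55 and -2.67 at day 3, and -2.67 and -2.59 at day 7. The day 1 arrays lay above all others and the day 3 and day 7 arrays below both normoxia arrays, with days 3 and 7 overlapping. The change was 0.48 ± 0.06 on day 1 (1.40-fold higher, adjusted p = 0.00393), -0.37 ± 0.06 on day 3 (adjusted p = 0.00550) and -0.39 ± 0.06 on day 7 (adjusted p = 0.00315). The day 7 fall was -0.10 after centring on the median, where it was not called (adjusted p = 0.210).

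Jun, the AP-1 partner that can also pair with itself, took another course. Its levels (chr5:115359410-115359469) were 0.31 and 0.38 in normoxia, -0.06 and -0.09 at day 1, 0.48 and 0.44 at day 3, and -0.13 and -0.03 at day 7. It was thus lower than in normoxia on days 1 and 7, where the groups overlapped, and the day 3 arrays were the highest. Jun fell by 0.42 ± 0.05 on day 1 (1.34-fold lower, adjusted p = 0.00353) and by 0.43 ± 0.05 on day 7 (adjusted p = 0.00121), and the day 3 change of 0.12 ± 0.05 was not called (adjusted p = 0.111). With spike-in scaling the day 1 change was -0.08 and not called, and on day 7 the call was lost after median centring (-0.13).

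Junb encodes a Jun protein that activates AP-1 sites less strongly than Jun. It was read by a single spot per array (chr19:24833225-24833284) at 3.75 on both normoxia arrays, 4.0 and 3.98 at day 1, 3.59 and 3.71 at day 3, and 3.73 and 3.68 at day 7. Both day 1 arrays stood above the other 6, and the day 3 and day 7 ranges overlapped. Junb rose by 0.24 ± 0.05 on day 1 (adjusted p = 0.0176), a call lost when any 1 of the 4 arrays compared was left out (adjusted p = 0.0734 to 0.0900) and with another background correction (adjusted p = 0.0909). Its changes of -0.10 ± 0.05 on day 3 and -0.04 ± 0.05 on day 7 were not called.

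Fosb, whose truncated product accumulates in neurons with repeated stimulation, was measured by the probe named LOC100360880 (chr1:78668672-78668731). It read -3.27 and -3.12 in normoxia, -3.46 and -3.48 at day 1, -3.40 and -3.51 at day 3, and -3.90 and -3.58 at day 7. All 6 exposed arrays were below both normoxia arrays, but the 2 day 7 arrays lay far apart. The changes were -0.27 ± 0.12 on day 1 (adjusted p = 0.139) and -0.26 ± 0.12 on day 3 (adjusted p = 0.130), neither called, and -0.54 ± 0.12 on day 7 (adjusted p = 0.0113). The day 7 call was lost in 6 of 20 alternatives, with changes of -0.16 to -0.54 in these, including when normoxia replicate 2 was left out (-0.47, adjusted p = 0.0618).

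The Egr genes encode zinc finger factors that bind GC-rich sites. Egr2, also known for its part in myelination by Schwann cells, had the largest day 1 rise of the 10 members. Its 10-spot probe (chr20:21883940-21883999) read -2.18 and -2.20 in normoxia, -1.58 on both day 1 arrays, -2.68 and -2.73 at day 3, and -2.77 and -2.78 at day 7. No group overlapped another. Egr2 rose by 0.61 ± 0.03 on day 1 (1.53-fold higher, adjusted p = 3.64e-04) and was lower than normoxia by 0.51 ± 0.03 on day 3 (adjusted p = 3.91e-04) and by 0.58 ± 0.03 on day 7 (adjusted p = 1.28e-04).

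Egr4, the family member also called NGFI-C, read 2.23 and 2.15 in normoxia, 2.56 and 2.49 at day 1, 1.86 and 1.83 at day 3, and 2.04 and 2.0 at day 7 (chr4:119765289-119765348). The groups did not overlap, and unlike Fos and Egr2 its lowest level was on day 3. It rose by 0.34 ± 0.05 on day 1 (adjusted p = 0.00491), fell by 0.35 ± 0.05 on day 3 (adjusted p = 0.00274) and was lower by 0.16 ± 0.05 on day 7 (adjusted p = 0.0275). Leaving out normoxia replicate 1 (-0.12), day 7 replicate 1 (-0.18) or day 7 replicate 2 (-0.14) ended the day 7 call, and with median centring the change was 0.13 (adjusted p = 0.0590).

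Egr1 (Zif268), the family member most used as a marker of plasticity, was read by 2 probes that parted after day 1. The brighter 10-spot probe (chr18:27347173-27347232, plus strand) read 2.10 and 2.11 in normoxia, 2.62 and 2.60 at day 1, 2.41 and 2.43 at day 3, and 2.27 and 2.28 at day 7. All its exposed arrays were above normoxia, in a declining order from day 1 to day 7. Its changes were 0.50 ± 0.03 on day 1 (1.41-fold, adjusted p = 5.39e-04), 0.31 ± 0.03 on day 3 (adjusted p = 0.00120) and 0.17 ± 0.03 on day 7 (adjusted p = 0.00693). The dimmer probe, upstream of it on the same strand (chr18:27346058-27346117), read -3.91 and -3.86 in normoxia, -3.38 and -3.30 at day 1, -4.11 and -4.28 at day 3, and -5.00 and -5.13 at day 7. It lay above normoxia on day 1 and below it on the later days, with changes of 0.54 ± 0.08 (adjusted p = 0.00579), -0.31 ± 0.08 (adjusted p = 0.0227) and -1.18 ± 0.08 (adjusted p = 1.67e-04) in a fit of single probes.

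The day 1 rise of Egr1 was thus measured by both of its probes, and the direction on days 3 and 7 depended on the probe. As the mean of both probes, Egr1 differed from normoxia by 0.0018 on day 3 (adjusted p = 0.978) and by -0.51 on day 7 (adjusted p = 4.31e-04). The brighter probe has a GC content of 28.3%, the lowest of the 12, and after removal of the trend with probe GC its changes were 0.08 on day 3 (not called) and -0.23 on day 7 (adjusted p = 0.0109).

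**Figure D3:**
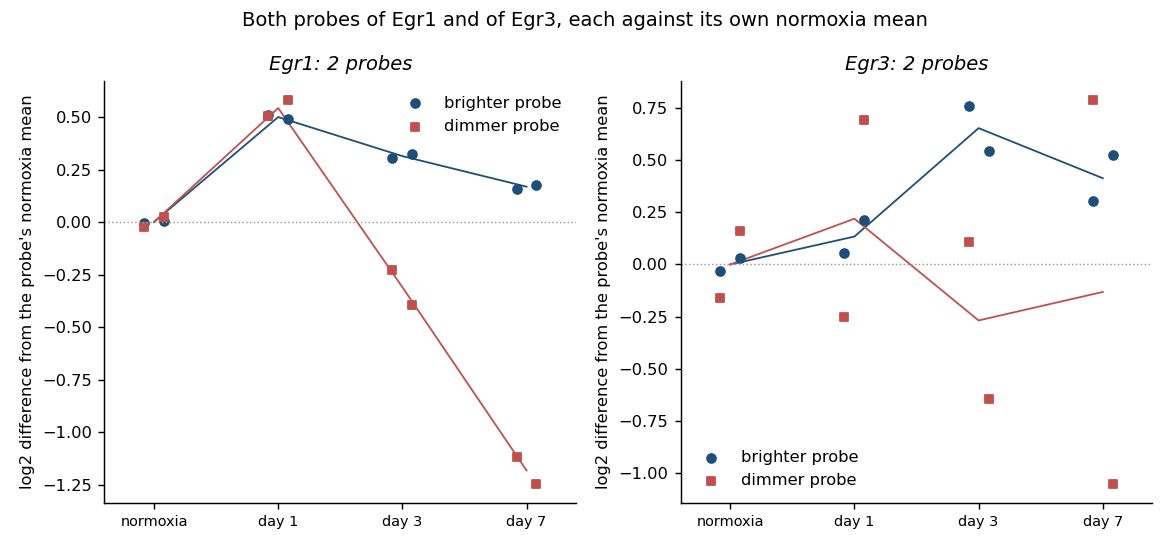
Both probes of Egr1 and both probes of Egr3 on the 8 arrays, as log2 difference (y axis) from the same probe's normoxia mean, with circles for the brighter and squares for the dimmer probe and lines through group means. The Egr1 probes coincide on day 1 and part on days 3 and 7, and the dimmer Egr3 probe scatters by over 1 log2 unit between the 2 day 7 arrays.

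Egr3, which is needed for muscle spindle development, was highest on day 3. Its main probe (chr15:50479803-50479862) read -4.78 and -4.72 in normoxia, -4.69 and -4.54 at day 1, -3.99 and -4.20 at day 3, and -4.44 and -4.23 at day 7. This probe is dim and on 2 spots, whose SD within 1 array was 0.0048 to 0.58 log2, highest on day 7 replicate 1. The day 1 change of 0.13 ± 0.11 was not called (adjusted p = 0.409). Every day 3 and day 7 array lay above the normoxia and day 1 arrays. Egr3 was higher by 0.65 ± 0.11 on day 3 (1.57-fold, adjusted p = 0.00657) and by 0.41 ± 0.11 on day 7 (adjusted p = 0.0248). A second probe (chr15:50479417-50479476), on 1 spot and well above background on 4 of 8 arrays, gave -0.27 ± 0.69 and -0.13 ± 0.69 on these days, neither called, and the mean of both probes was not called on either day (0.19 and 0.14). The day 7 call was also lost without normoxia replicate 1 (0.38), normoxia replicate 2 (0.45) or day 7 replicate 2 (0.30).

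Nr4a1 (Nur77), an orphan nuclear receptor whose activity is set mainly by how much of it is made, read 2.75 and 2.76 in normoxia, 3.07 and 3.10 at day 1, 2.64 and 2.60 at day 3, and 2.48 and 2.47 at day 7 on its 10-spot probe (chr7:140020442-140020501). The groups did not overlap, and the order was day 1, normoxia, day 3 and day 7 from high to low. It rose by 0.33 ± 0.03 on day 1 (1.26-fold higher, adjusted p = 0.00216) and was lower by 0.13 ± 0.03 on day 3 (adjusted p = 0.0246) and by 0.28 ± 0.03 on day 7 (adjusted p = 0.00128). The small day 3 fall lost its call in 8 of 20 alternatives, among them the removal of any 1 normoxia, day 1 or day 3 array (adjusted p = 0.0516 to 0.111). With median centring it was 0.01 on both day 3 and day 7, neither called.

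Arc, which encodes a synaptic protein that removes AMPA receptors from the membrane, had the largest difference from normoxia among the members' brightest probes. Its 10-spot probe (chr7:112772025-112772084) read 2.23 and 2.22 in normoxia, 2.59 and 2.61 at day 1, 1.74 and 1.72 at day 3, and 1.26 and 1.22 at day 7. The 4 groups stood apart, and each later exposure day was below the one before. Arc rose by 0.37 ± 0.03 on day 1 (adjusted p = 0.00146), and was then lower than normoxia by 0.50 ± 0.03 on day 3 (1.41-fold, adjusted p = 4.04e-04) and by 0.98 ± 0.03 on day 7 (1.98-fold, adjusted p = 4.35e-05). All 19 or 20 alternatives kept these calls, with changes of 0.37 to 0.72 on day 1, -0.35 to -0.79 on day 3 and -0.69 to -1.67 on day 7.

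**Figure D4:**
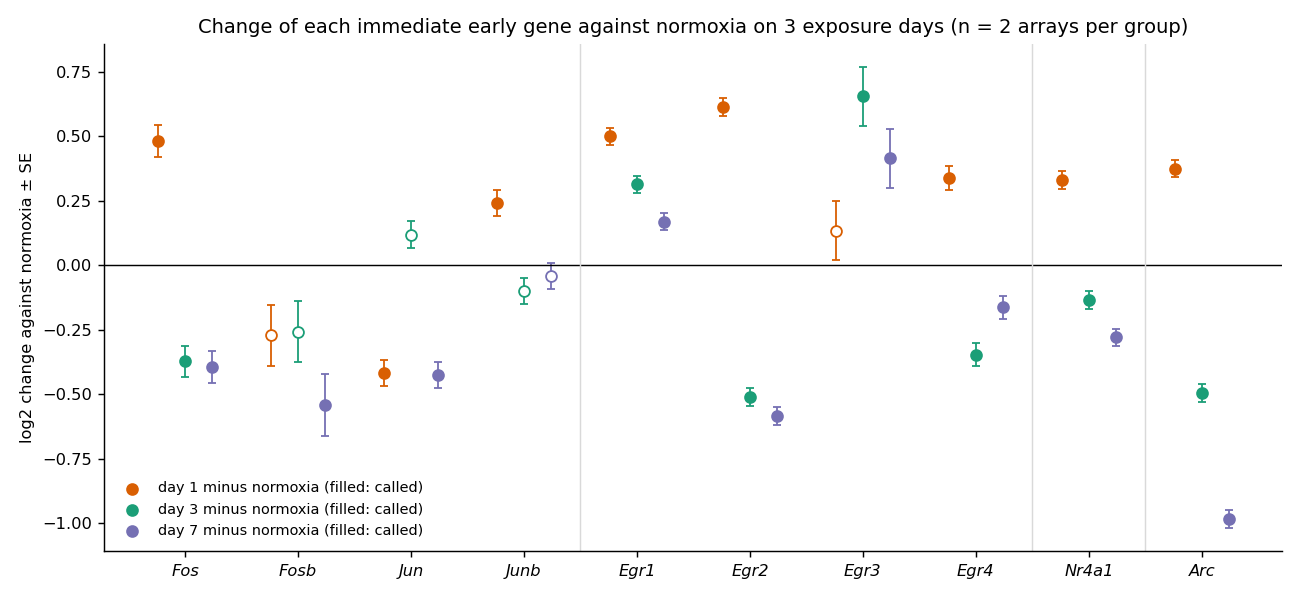
Log2 change ± SE against normoxia (y axis) of each immediate early gene on day 1, day 3 and day 7, with filled points for called changes and open points for the others (n = 2 arrays per group). Fos, Egr2, Egr4, Nr4a1 and Arc are above 0 on day 1 and below 0 on days 3 and 7, with Arc at -0.98 on day 7.

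The later days were then set against day 1. On day 3, 7 members were lower than on day 1 (23.0% of all genes were lower) and 2 were higher (28.2%), with a median of -0.40 beside 0.03 over all genes. Egr2 fell by 1.12 ± 0.03 (2.18-fold lower on day 3, adjusted p = 6.11e-05), Arc by 0.87 ± 0.03 (adjusted p = 1.05e-04), Fos by 0.85 ± 0.06 (adjusted p = 4.09e-04), Egr4 by 0.68 ± 0.05 (adjusted p = 3.49e-04), Nr4a1 by 0.46 ± 0.03 (adjusted p = 4.40e-04), Junb by 0.34 ± 0.05 (adjusted p = 0.00363) and Egr1 by 0.19 ± 0.03 on its brighter probe (adjusted p = 0.00641) and 0.85 ± 0.08 on its dimmer one. The 2 that were higher on day 3 than on day 1 were Jun, by 0.54 ± 0.05 (adjusted p = 9.23e-04), and Egr3, by 0.52 ± 0.11 (adjusted p = 0.0140), and Fosb differed by 0.01 ± 0.12. The Egr1 call was lost with median centring (-0.07), the Egr3 call as the mean of its probes (0.016, the second probe alone at -0.49 ± 0.69) and without day 1 replicate 1 (0.44) or day 3 replicate 1 (0.41), and Jun was at -0.10 with spike-in scaling. The striatal markers, 14 of 14 of which were lower on day 3 than on day 1, moved in this comparison too, and 10 of 10 choroid plexus markers were higher.

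Between day 7 and day 1, 7 members were lower on day 7 (26.5% of all genes) and 0 were higher (35.8%), with a median of -0.42 beside 0.07. Arc was 2.56-fold lower on day 7 than on day 1 (-1.36 ± 0.03, adjusted p = 2.05e-05) and Egr2 2.29-fold lower (-1.20 ± 0.03, adjusted p = 2.61e-05). Fos (-0.88 ± 0.06), Nr4a1 (-0.61 ± 0.03), Egr4 (-0.50 ± 0.05), the brighter Egr1 probe (-0.33 ± 0.03) and Junb (-0.29 ± 0.05) were lower by less, and Jun (-0.01), Fosb (-0.27) and Egr3 (0.28) were not called. The dimmer Egr1 probe fell by 1.73 ± 0.08 (adjusted p = 5.41e-05), more than Arc or Egr2. With median centring the brighter Egr1 probe was at -0.06 and Junb at -0.02, neither called. Both comparisons use the same day 1 arrays.

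Between day 7 and day 3, 4 members were lower on day 7 (18.3% of all genes) and 1 was higher (24.2%), with a median of -0.15 beside 0.05. Jun was lower by 0.54 ± 0.05 (adjusted p = 0.00153) and Arc by 0.49 ± 0.03 (adjusted p = 8.01e-04), and both calls held in all 20 alternatives. The smaller differences of Nr4a1 (-0.15), the brighter Egr1 probe (-0.15) and Egr4 (0.18) lost their calls when single day 3 or day 7 arrays were left out, so that 2 of the 10 members were called without day 3 replicate 1, day 3 replicate 2 or day 7 replicate 1.

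With the neighbours in rank compared, the order of the 4 levels was day 1, normoxia, day 3 and day 7 for Arc and Nr4a1, each step called. Fos and Egr2 had the same order, with no call between days 3 and 7. In Egr4 days 7 and 3 changed places and each step was called. The brighter Egr1 probe gave day 1, day 3, day 7 and normoxia, each step called. Junb was highest on day 1 with no call among the other groups, Jun was called only between normoxia and day 1, and neither Egr3 nor Fosb differed between any neighbours in rank.

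Across alternative settings, the day 1 rises of Fos, Egr1, Egr2, Egr4, Arc and Nr4a1 were called in all 19 alternatives, and so were the differences between days 3 and 1 of Fos, Egr2, Egr4, Arc, Nr4a1 and Junb. Changes on day 7 against normoxia were also taken relative to the median of all genes, which no array-wide scaling changes. They were -0.95 for Arc, -0.55 for Egr2, -0.51 for Fosb, -0.39 for Jun, -0.36 for Fos and -0.25 for Nr4a1. Egr4 was at -0.13, Egr3 at 0.45, the brighter Egr1 probe at 0.20 and Junb at -0.01. Quantile normalization, which is no constant per array, gave -1.20, -0.43, -0.31, -0.50, -0.25, -0.55, -0.39, 0.72, -0.07 and -0.38 in the same order. The brighter Egr1 probe changed sign with it. Bright genes as a whole rose relative to dim ones over the exposure. In the level decile that holds Arc, Egr1, Egr4 and Nr4a1 the median change on day 7 was 0.26, in that of Fos and Egr2 it was -0.14, in that of Fosb -0.18 and in that of Egr3 -0.23.

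**Figure D5:**
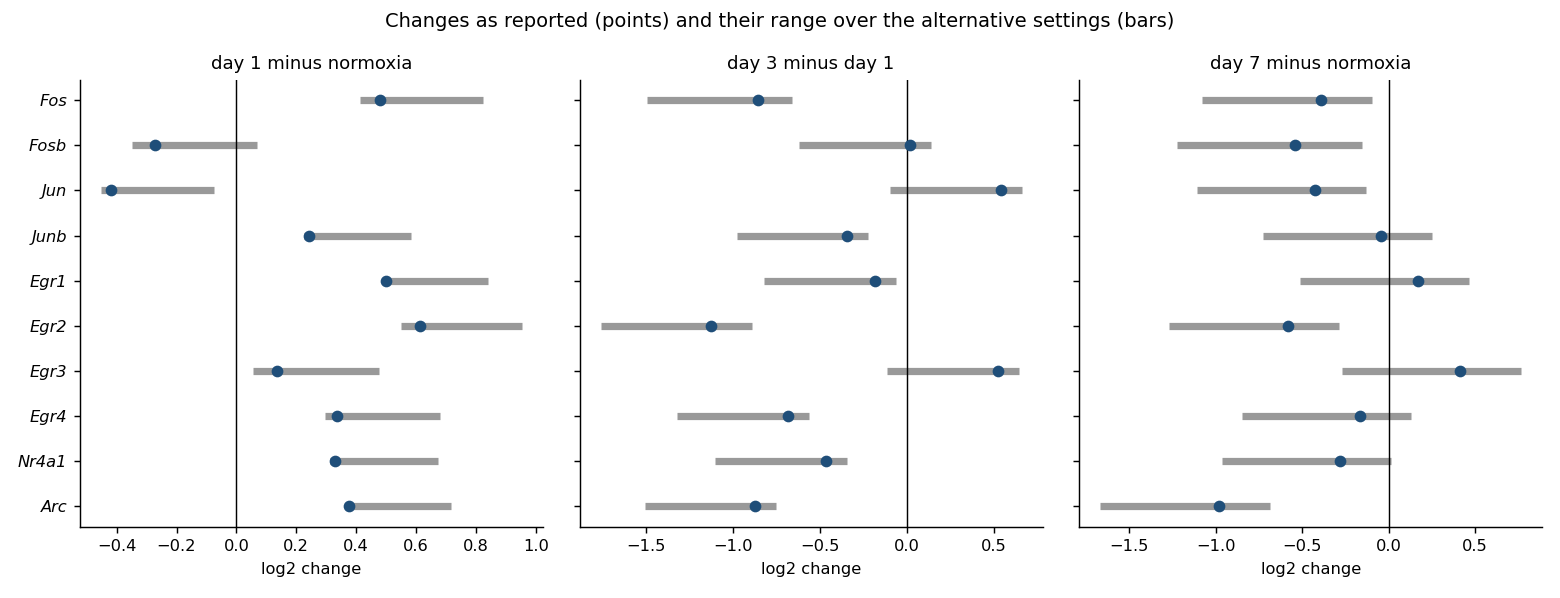
Log2 change of each immediate early gene (x axis) as reported (points) and its range over 19 or 20 alternative settings (bars), for day 1 minus normoxia, day 3 minus day 1 and day 7 minus normoxia. On day 1 the bars of Fos, Junb, Egr1, Egr2, Egr4, Nr4a1 and Arc lie above 0, and on day 7 those of Egr1, Egr3, Egr4, Junb and Nr4a1 cross 0.

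The 2 arrays of a group lay closest together for the members on 10 spots. For Arc, Egr1, Egr2 and Nr4a1, each on 10 spots, the 16 pairs of arrays differed by 0.000906 to 0.0467 log2, and all 16 differences were within 2 SE of the spots, where 1 SE was 0.0149 to 0.0513. Of the 54 member spots on each array none was saturated, and 9 over all arrays were left out as outliers. Arrays of 1 group thus differed for these 4 genes by no more than repeated spots did. The array part of their small SEs carries no more than that spread, and the rest is limma's prior from all genes. For the other 6 genes, on 1 or 2 spots, the pairs differed by 0.00229 to 0.322 log2, the most for Fosb at day 7, and by up to 1.84 on the second Egr3 probe. Between the 2 spots of 1 array, the SD reached 0.59 log2 for Fos (day 7 replicate 2) and 0.58 for the main Egr3 probe (day 7 replicate 1). The SEs of these genes do not include that spread between spots as such.

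Among 17 other transcription factor genes induced by activity, 7 rose and 5 fell on day 1, with a median of -0.01, against 5 and 6 on day 3 and 6 and 5 on day 7. Of all genes, 15.3% rose and 20.2% fell on day 1, against 24.2% and 26.2% at day 3 and 31.5% and 29.7% at day 7, and these shares are the background of all list counts against normoxia below. The list went both ways on each day, with both day 7 counts and the day 3 rises at about the share of all genes. Ier2 rose by 0.55 ± 0.04 on day 1 and Ier5 by 0.44 ± 0.04, both immediate early genes of growth factor stimulation. Atf3, a stress-induced partner of Jun, fell by 0.85 ± 0.06, and Nr4a3, the sister receptor of Nr4a1, by 0.60 ± 0.04, or by 0.17 as the mean of its probes. Fosl1, an AP-1 gene, was well above background on the 2 day 1 arrays only, through which it passed the filter. It was 8.15-fold higher on day 1 than in normoxia, taken at its own signal there. With days 3 and 7 raised to the lowest signal well above background, Fosl1 was 5.90-fold lower on day 3 and 5.72-fold lower on day 7 than on day 1. With another background correction, which adds a constant to every signal, these Fosl1 changes were 1.09, -0.61 and -0.55 log2, all called. They are smaller than the folds above, which are thus no lower bounds.

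On day 3 Jund, the AP-1 gene that most cells express without a stimulus, rose by 0.66 ± 0.05 against normoxia, while Klf2 fell by 0.70 ± 0.05, Fosl2 by 0.55 ± 0.04 and Atf3 by 0.54 ± 0.06. On day 7 Jund was higher by 1.22 ± 0.05 and the antiproliferative gene Btg2 by 0.58 ± 0.04, and Fosl2 was lower by 1.13 ± 0.04. With another background correction the falls of Fosl2 were 0.18 on day 3 and 0.41 on day 7, still called. Ier5 was higher by 0.62 ± 0.04 on its brightest probe on day 7 and lower by 0.35 as the mean of its probes, so its direction depended on the probe.

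Between later days, 5 of the 17 were higher on day 3 than on day 1 (28.2% of all genes) and 7 lower (23.0%), the higher ones at about the share of all genes. In this comparison Nr4a3 was higher by 0.91 ± 0.04, Klf2 lower by 0.59 ± 0.05 and Fosl2 lower by 0.54 ± 0.04. On day 7, 7 were higher than on day 3 (24.2% of all genes) and 1 lower (18.3%). Klf10, a zinc finger gene induced by TGF-beta, was higher on day 7 by 0.44 ± 0.04 against day 3 and by 0.80 ± 0.04 against day 1, and Nr4a3 was higher by 1.13 ± 0.04 against day 1. With spike-in scaling Klf10 was at 0.05 (not called) and -0.23 (called lower), and Nr4a3 at 0.11 (not called).

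Of 20 effector genes of activity, 19 were tested (all but Zfp36), and 8 rose and 6 fell on day 1, against 7 and 6 at day 3 and 6 and 9 at day 7, the day 7 rises at about the share of all genes. Dusp1, the phosphatase gene that shuts off MAPK signalling, read -1.84 and -1.74 in normoxia, -0.83 and -0.74 at day 1, -3.63 and -3.51 at day 3, and -3.88 and -3.92 at day 7. Its groups did not overlap and day 1 was highest, with changes of 1.00 ± 0.07 on day 1, -1.78 ± 0.07 on day 3 and -2.11 ± 0.07 on day 7. Plk2, a kinase gene of synaptic scaling, rose by 0.76 ± 0.04 on day 1 and was lower by 0.74 ± 0.04 on day 7 than on day 1. The neurotrophin gene Bdnf fell by 0.75 ± 0.04 on day 1 and was higher by 1.02 ± 0.04 on day 3 than on day 1. Gadd45b, a gene of DNA demethylation and stress, fell by 0.52 ± 0.04 on day 1.

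Other effectors moved later. On day 3 Nrn1, the neuritin gene, was higher than normoxia by 0.97 ± 0.04 and the kinase gene Sik1 by 1.18 ± 0.07, while the matrix-associated Cyr61 was lower by 1.23 ± 0.06. On day 7 the kinase genes Pim1 and Sik1 were higher by 1.79 ± 0.09 and 1.74 ± 0.07 and the ERK phosphatase gene Dusp6 by 0.79 ± 0.04. As the mean of its probes Sik1 rose by 0.56 on day 3 and by 0.80 on day 7. Against day 1, 7 effectors were higher on day 3 (28.2% of all genes) and 8 lower (23.0%), the lower ones including Gadd45g (-0.55 ± 0.05) and Cyr61 (-0.86 ± 0.06). On day 7, 6 were higher than on day 3 (24.2%) and 4 lower (18.3%), the lower ones at about the share of all genes.

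The upstream list held 25 genes of kinases, factors, coactivators and the corepressors of Egr proteins, of which 24 were tested (all but Mkl2). On day 1, 7 rose and 2 fell, against 11 and 3 at day 3 and 11 and 6 at day 7. Mef2c, a factor gene that restrains synapse number, rose by 1.16 ± 0.04 on day 1, the kinase gene Rps6ka5 (MSK1), whose product phosphorylates CREB and histone H3, by 0.72 ± 0.04, and Camk4, a nuclear calcium-dependent kinase gene, by 0.66 ± 0.05.

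On day 3 Camk2a, the main synaptic CaM kinase gene, was higher than normoxia by 0.72 ± 0.04, Camk4 by 0.62 ± 0.05 and the SRF partner gene Elk4 by 0.71 ± 0.07. On day 7 Rps6ka5 was higher by 0.71 ± 0.04, the coactivator gene Ep300 by 0.75 ± 0.05 and Mef2a by 0.75 ± 0.05. With spike-in scaling these 3 day 7 changes, Btg2, Ier5 and Dusp6 were at -0.10 to 0.10 and not called. Of the 24, 9 were higher on day 3 than on day 1 (28.2% of all genes) and 6 lower (23.0%). On day 7, 6 were higher than on day 3 (24.2%) and 8 lower (18.3%). Both counts of 6 were at about the share of all genes.

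For each member the 2 genes with the most similar course over the 8 arrays were looked up among 10383 genes with a symbol and an SD of at least 0.2. With 8 arrays in 4 groups, Pearson's r is given as a description. The course of Arc was most like that of Prkcz, the atypical protein kinase C gene (r = 0.999), and of RGD1563441 (r = 0.999). Egr2 was most like Raly and Il6st (r = 0.999 and 0.998), and Fos like Nkx2-1, a homeobox gene of the ventral forebrain, and Itih3 (r = 0.995 and 0.993). Nr4a1 was most like Jdp2, which encodes a repressor that dimerises with Jun (r = 0.997), and Lamp5 (r = 0.996), and Egr1 like the vessel growth factor gene Angpt2 (r = 0.998) and Fes (r = 0.996).

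Egr4 was most like Slc10a4 (r = 0.993) and Hrasls (r = 0.992), Jun like Glycam1 and Slc7a14 (both r = 0.992), and Junb like Tnfaip2 (r = 0.982) and RGD1565059 (r = 0.978). Fosb was most like Ino80b (r = 0.995) and Tmem245 (r = 0.967), and Egr3 like the potassium channel gene Kcna4 (r = 0.972) and Pnn (r = 0.956). Within the set, Fos and Egr2 were each other's most similar member (r = 0.993), Nr4a1 was closest to Egr2 (r = 0.979), Arc to Nr4a1 (r = 0.956) and Egr4 to Fos (r = 0.952). Junb was closest to Egr4 (r = 0.937), while Jun and Fosb (r = 0.628), the brighter Egr1 probe (r = 0.591 with Junb) and the main Egr3 probe (r = 0.268 with Jun) had no member with a course so close. The dimmer Egr1 probe was closest to Arc (r = 0.980), so the likeness of Egr1 depended on the probe.

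The share of calls that were higher, over all genes, depended on scaling. On day 1 it was 43.1%, against 60.2% with the probe GC trend removed and 91.3% with spike-in scaling. On day 3 against normoxia it was 48.0%, against 66.7% with median centring, 67.9% with the other background correction and 12.2% with spike-in scaling, and on day 7 it was 51.5%, against 73.1%, 71.5% and 3.36%. For day 3 against day 1 it was 55.1%, against 68.9%, 70.8% and 2.85%, and for day 7 against day 1 it was 57.4%, against 74.4%, 73.7% and 1.04%. For day 7 against day 3 it was 57.0%, against 77.2% with median centring and 4.0% with spike-in scaling.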

How the data were processed

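Per the labels' protocols, the authors labelled total RNA with Cy3 from an oligo dT primer. Per the file headers, Agilent Feature Extraction 11.5.1.1 made the deposited spot values: a processed signal intensity, a mean intensity and a local background intensity, on an array design annotated on rn4. The authors' deposited values are in log2 units of unstated scaling, found to be log2 processed signal minus about the array's 75th percentile (96.7% to 97.4% of values within 0.05 after a constant for each array), and served as an alternative.

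Control and outlier spots were left out, log2 signals were averaged per probe, and each array's 75th percentile was subtracted. A probe counted as well above background on an array if at least 0.5 of its spots did. Probes so measured on both arrays of 1 group were kept (24678 of 30346 with complete values), and a gene was represented by its brightest kept probe (21296 genes). Both arrays of a group measured 21131 of these genes in normoxia, 20035 at day 1, 18229 at day 3 and 17901 at day 7. All 8 arrays lay on 1 slide, with normoxia and day 1 in row 1 and days 3 and 7 in row 2, so slide row and these pairs of groups cannot be told apart.

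Limma 3.58.1 in R 4.3.3 fitted 1 mean per group to all 8 arrays, with 4 residual and 1.22 prior degrees of freedom. P-values were two-sided and Benjamini-Hochberg adjusted over 21296 genes in each of 6 comparisons, with calls at 0.05. Single probes were fitted in the same way over 24678 probes. For a gene well above background on no array of the lower group, the fold is a bound, with that group set per array to the higher of its own signal and the lowest signal well above background. The software was data.table, version 1.17.8, in R, and numpy 2.4.6, pandas 2.3.3 and matplotlib 3.10.9 in Python 3.11.15. The procedure was tested on simulated data.

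The members and the gene lists were chosen with earlier results of these data known. From each list of other genes, up to 4 genes a comparison with the smallest p could be named, and the day 1 rise of Fosl1 was added after its values were seen. Alternatives were quantile normalization, median centring, scaling on 7 spike-in probes, normexp background correction with offset 50 ("another background correction"), averaging a gene's kept probes, removal of the probe GC trend, the authors' values, a fit of just the 2 groups compared, a prior with an intensity trend, probes required on all 8 arrays or not filtered, and each array left out. Leaving out both day 1 arrays was chosen after seeing the data.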

Additional observations from a re-analysis of the deposited data

Results flagged for a closer look

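For 5 members the effect of exposure had opposite signs on different days, each sign called against normoxia. The difference between the days was called by limma as well. It exceeds either change at the same SE, so its call follows from the calls against normoxia and is no added support. All 5 were higher on day 1 than in normoxia and lower on days 3 and 7. Day 3 minus day 1 was -0.85 for Fos, -1.12 for Egr2, -0.68 for Egr4, -0.87 for Arc and -0.46 for Nr4a1. Day 7 minus day 1 was -0.88 for Fos, -1.20 for Egr2, -0.50 for Egr4, -1.36 for Arc and -0.61 for Nr4a1. All 10 of these differences were called in all 19 alternatives run for each. The signs against normoxia depended more on scaling. With median centring Nr4a1 was at 0.0137 on day 3 and 0.0149 on day 7 and Egr4 at 0.13 on day 7, and Fos was not called on day 7 (-0.10). Single arrays mattered too. The Nr4a1 fall on day 3 lost its call without any 1 normoxia, day 1 or day 3 array. The Egr4 fall on day 7 lost its call without normoxia replicate 1 or either day 7 array. Striatal markers were higher on the day 1 arrays and choroid plexus markers lower, and their part in these differences was not tested.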

How the results depend on the processing

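Of 1170 changes of members recomputed under alternatives, 1041 kept direction and side of the threshold, 22 changed sign without a call in either fit, 62 lost the call, 27 gained one and 18 changed sign with a call in at least 1 fit, and the cause of these was not tested unless stated. Median centring adds a constant to all genes, and the sign changed with it for Nr4a1 (0.0137 on day 3 and 0.0149 on day 7 against normoxia, and 0.0012 for day 7 against day 3), Junb (0.25) and Egr4 (0.13) on day 7 against normoxia, Egr1 on day 7 against day 3 (0.0023), and Jun on day 7 against day 1 (0.26). Spike-in scaling, also a constant per array, turned Egr1 (-0.52) and Egr3 (-0.27) on day 7 against normoxia, Fosb (-0.62), Jun (-0.10) and Egr3 (-0.11) on day 3 against day 1, Junb (-0.33) and Egr4 (-0.21) on day 7 against day 3, and Egr3 on day 7 against day 1 (-0.74). Egr1 on day 7 against normoxia was also -0.0223 with quantile normalization, -0.51 as the mean of its probes and -0.23 without the GC trend.

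Counts moved by over 1.5 times as follows. The share of all genes called in the same setting is not given beside each list count, so these counts describe the settings and not the lists. With spike-in scaling most calls over all genes went 1 way: 4.0% were higher for day 7 against day 3, and 91.3% on day 1. Members called were 5 with median centring on day 7 against normoxia (9 as reported), and for day 7 against day 3 they were 10 with spike-in scaling, 2 with normexp and 2 with only the 2 groups compared (5 as reported). Genes called in all were 16479 with spike-in scaling for day 3 against day 1 (10913 as reported) and 5358 with only the 2 groups compared for day 7 against day 3 (9034 as reported), where the other factors gave 5 and the upstream list 8 (8 and 14 as reported) and the effectors gave 6 with normexp (10 as reported). The upstream list had 18 calls on day 1 with spike-in scaling (9 as reported) and the other factors 7 on day 3 without the GC trend (11 as reported). With single arrays left out, genes called on day 1 were 4350 to 7669 (7559 as reported), lowest without a day 1 array, upstream calls were 4 to 11 on day 1 and 9 to 16 on day 3 against day 1, lowest without day 1 replicate 2, and for day 7 against day 3 they were 7 to 12, with 2 to 5 members. No paired analysis was possible because the labels give no replicate numbers that groups share. The number of arrays limits the precision.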
